A study of Mus musculus with 70 samples.

Results

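The transcripts of 10 genes of the bone morphogenetic protein (BMP) family and its secreted inhibitors were followed through the repair of 2 kinds of bone injury in the mouse. The genes were chosen by name, with earlier results of these data known. They are 8 ligands (Bmp2, Bmp3, Bmp4, Bmp5, Bmp6, Bmp7, Gdf5 and Gdf10) and 2 antagonists (Nog and Grem1). All 10 have a row among the 47490 gene names of the femur tables and the 46855 of the ulna tables. BMPs and growth differentiation factors (GDFs) are secreted dimers of the TGF-beta superfamily. Most of them bring type I and type II receptor kinases together, which phosphorylate Smad1, Smad5 and Smad9, and these enter the nucleus with Smad4 and switch on genes such as Id1. Noggin (Nog) and gremlin 1 (Grem1) bind ligands outside the cell and keep them from the receptors. In the skeleton the family is known for inducing cartilage and bone, and in mice Bmp2 is needed for fracture repair to begin.

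The animals were 12-week-old female C57BL/6 mice, and the labels name no engineered allele in any group. After a full fracture, femurs were collected at 4 h, 1 d, 3 d, 7 d and 14 d (5 libraries at each time), and the reference was the intact left femur (10 libraries). Ulnas were collected 4 h, 3 d and 5 d (5 libraries each) and 1 d and 7 d (4 libraries each) after a stress fracture, with the intact left ulna (9 libraries) as reference, and 3 further ulna samples were not analysed here. A full fracture breaks the whole shaft and heals largely through a cartilage callus, whereas a stress fracture is a partial crack bridged mainly by woven bone. The intact limbs came from injured animals, so they are controls for the limb and not for the animal, and library numbers do not tie a limb to its opposite limb. Marrow was spun out of the femur sections, and no such step is named for the ulna. The labels call the fractured femur samples periosteum at 4 h, 1 d and 3 d and callus at 7 d and 14 d. All injured ulna samples are labelled periosteum. Time and labelled tissue thus cannot be told apart between 3 d and 7 d in femurs.

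Upstream sequence from RefSeq (GRCm38.p6) was at hand for 5 of the 10 genes, and the 250 bases before the transcription start are shown for 4 whose levels moved in both bones. The entry for Bmp6 begins 609 bases inside the GENCODE gene and is not shown. Each is given 5′ to 3′ on the strand of its gene, in lower case, with matches to the motifs searched in capitals. Bmp4 lies on the minus strand (upstream window chr14:46390670-46390919), Bmp5 on the plus strand (chr9:75775115-75775364), Gdf10 on the plus strand (chr14:33923337-33923586) and Grem1 on the minus strand (chr2:113758649-113758898).
Bmp4: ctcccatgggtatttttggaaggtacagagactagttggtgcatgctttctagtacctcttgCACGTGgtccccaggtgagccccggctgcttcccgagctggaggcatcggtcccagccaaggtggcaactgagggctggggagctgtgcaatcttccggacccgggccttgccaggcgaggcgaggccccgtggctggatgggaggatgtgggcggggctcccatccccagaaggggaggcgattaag
Bmp5: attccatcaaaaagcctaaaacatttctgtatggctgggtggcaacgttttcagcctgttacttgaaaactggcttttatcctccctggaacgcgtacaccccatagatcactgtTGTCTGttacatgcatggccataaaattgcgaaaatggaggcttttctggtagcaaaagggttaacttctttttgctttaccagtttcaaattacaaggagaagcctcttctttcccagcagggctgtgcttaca
Gdf10: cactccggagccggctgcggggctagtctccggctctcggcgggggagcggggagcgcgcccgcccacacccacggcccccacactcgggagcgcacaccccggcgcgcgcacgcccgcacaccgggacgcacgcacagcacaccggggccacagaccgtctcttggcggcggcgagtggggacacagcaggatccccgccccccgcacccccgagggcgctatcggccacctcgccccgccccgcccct
Grem1: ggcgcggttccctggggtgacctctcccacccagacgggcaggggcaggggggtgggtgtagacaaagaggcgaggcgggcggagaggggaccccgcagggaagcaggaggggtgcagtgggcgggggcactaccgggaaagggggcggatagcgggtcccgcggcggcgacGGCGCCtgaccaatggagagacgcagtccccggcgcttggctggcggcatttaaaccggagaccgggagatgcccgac
Both strands were searched for the GC-rich Smad element GGCGCC, the Smad box CAGACA, the Runx element TGTGGT, the hypoxia response core ACGTG and the TATA box TATAAA. Bmp4 held ACGTG on both strands at overlapping positions, which together read CACGTG, beginning 188 bases before the start. Bmp5 held 1 CAGACA, on the opposite strand, 135 bases before the start. Grem1 held 1 GGCGCC, 78 bases before the start, and Gdf10 held none of the 5 motifs. Among 32817 mouse promoter windows of the same length, 16.6% held ACGTG, 9.59% held GGCGCC, 17.1% CAGACA, 14.0% TGTGGT and 12.4% TATAAA. Such matches describe these letters only and are not binding sites.

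Expression is given as scaled RPKM, that is, reads per kilobase of gene corrected for the size of the library. It was brought to a common scale within a bone by 1 factor per library, so levels can be compared between groups. Comparing levels between genes also needs the right gene lengths, and the length used is uncertain for Bmp4, Bmp6 and Gdf10. Depth recovered from the values ran from 8117200 to 30794600 assigned reads per library (median 16443200). Behind these levels, Gdf5 had from 1 to 541 reads per library and fewer than 10 in 37 of the 67, whereas Nog, the next thinnest gene, had at least 35. Differences are log2 of scaled RPKM plus 0.1 with their standard error (SE), tested with limma across all genes of the fit and called at a Benjamini-Hochberg adjusted p below 0.05. The p-values set each difference against the spread between libraries within groups, pooled over all groups of the fit and drawn toward the trend over genes. The tissue showed its bone markers: intact femurs averaged 4272 ± 1948 scaled RPKM of Col1a1 and 135 ± 42.5 of Dmp1 (SD, n = 10), and intact ulnas 1064 ± 591 of Col1a1 and 36.0 ± 8.54 of Dmp1 (SD, n = 9). Muscle was present too, with Acta1 at 8367 ± 2143 in intact femurs and 6188 ± 843 in intact ulnas, although the labels call the samples periosteum or callus. In such whole tissue, fewer cells of a type and less RNA per cell cannot be told apart.

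**Figure D1:**
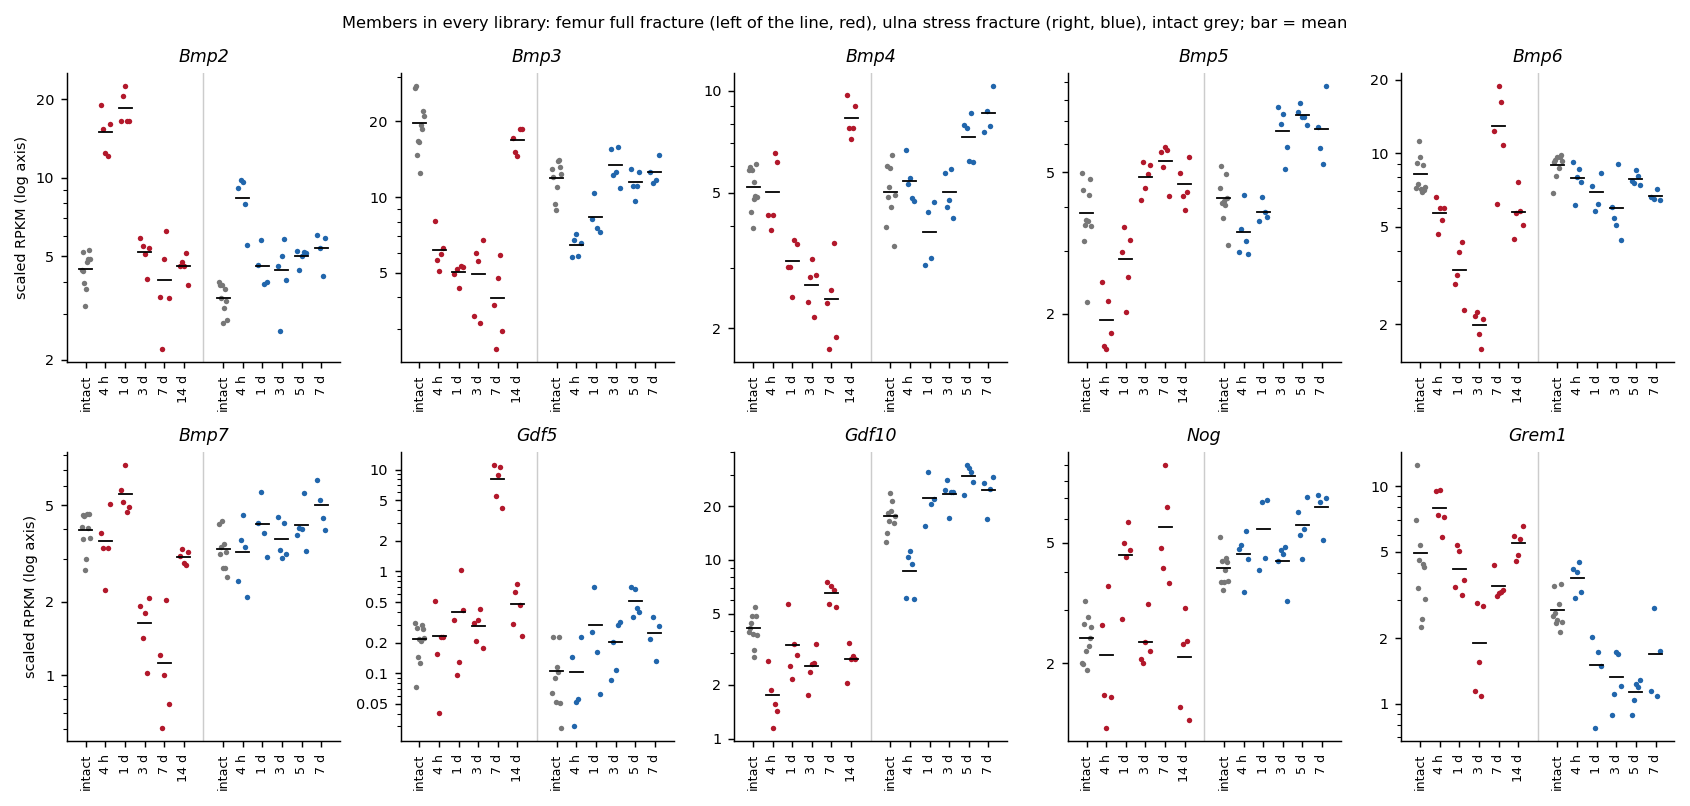
Scaled RPKM (log axis) of the 10 genes in each library, with intact limbs in grey, femurs after full fracture in red and ulnas after stress fracture in blue, and a bar at each group mean. Bmp2 stands highest at 4 h and 1 d after full fracture, Gdf5 at 7 d after full fracture, and the mean of Gdf10 in every ulna group is above its mean in each femur group.

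After full fracture most of the genes changed at every time up to 7 d, but so did most genes tested. At 4 h the test called 2 of the 10 genes up and 4 down, beside 56.7% of all 19944 genes tested that changed in either direction. The counts were 3 up and 4 down at 1 d (51.5% of all genes), 1 up and 6 down at 3 d (56.9%), 5 up and 3 down at 7 d (66.2%) and 2 up and 2 down at 14 d (55.9%). Gdf5 is among those up at 7 d and 14 d, and among the calls from 3 d to 7 d and from 7 d to 14 d given below. It entered the femur fit only through its high 7 d group, so its calls that involve 7 d add no support to these counts. Each femur count of 6 to 8 in 10 thus lies near or somewhat above its background, and the 14 d count lies below it. Without library 1 of the 14 d femurs that count fell to 2, because Bmp6 (-0.43) and Gdf10 (-0.44) were no longer called. Between neighbouring times the calls numbered 7 from 4 h to 1 d (39.8% of all genes), 6 from 1 d to 3 d (32.1%), 6 from 3 d to 7 d (35.1%) and 7 from 7 d to 14 d (31.5%). From 3 d to 7 d the Bmp7 call (-0.58) was lost with a pseudocount of 1 (-0.34) and without some single libraries. Grem1 (0.94) was lost on RPKM as deposited (0.67), where Bmp2 (-0.70), Bmp3 (-0.60) and Bmp4 (-0.45) were called lower instead.

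Stress fracture gave fewer calls up to 3 d. Of the 9 genes that passed the filter on low values in ulnas, 1 rose and 2 fell at 4 h, where 10.7% of all 20506 genes changed. At 1 d 3 fell (12.8% of all genes), at 3 d 1 rose and 2 fell (37.8%), at 5 d 5 rose and 1 fell (43.3%) and at 7 d 5 rose and 2 fell (34.6%). The 1 d count dropped to 1 without library 2 of that group, where Grem1 (-0.59) lost its call together with Bmp6. Between neighbouring times 4 genes changed from 4 h to 1 d (11.1% of all genes), 2 from 1 d to 3 d (17.1%) and 1, Bmp4, from 3 d to 5 d (4.68%). That single call was lost without any 1 of 6 of the 10 libraries, with values from 0.48 to 0.59 over all 10 omissions. From 5 d to 7 d limma called 0 of the 9, 0 also had an unadjusted p below 0.05, and 1.7% of all genes changed.

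**Figure D2:**
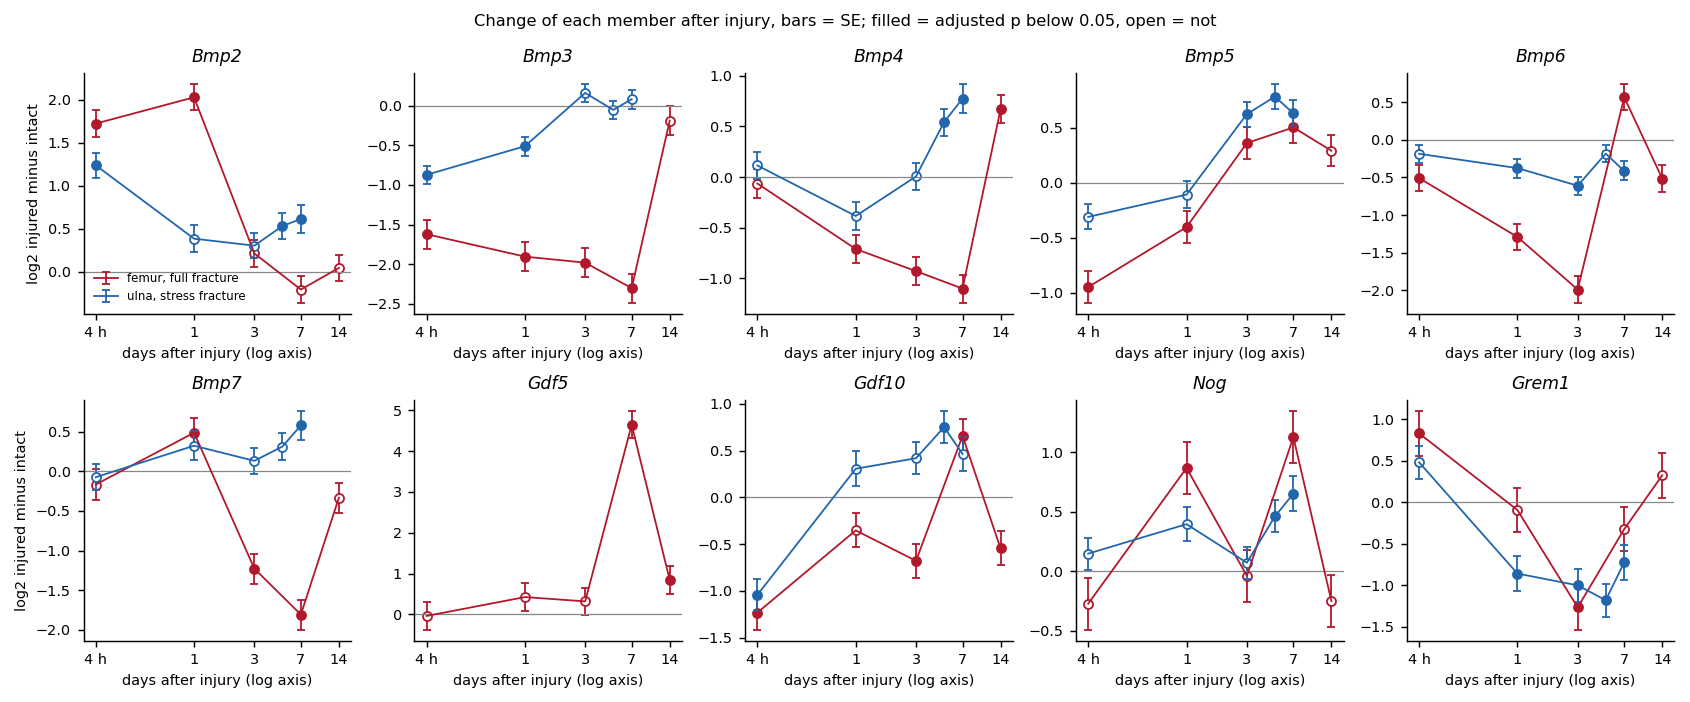
Log2 change (injured minus intact, bars SE) of each gene against time after injury on a log axis, for femur full fracture in red and ulna stress fracture in blue, with filled points at an adjusted p below 0.05. Bmp3 stays between -1.62 and -2.30 from 4 h to 7 d after full fracture, while after stress fracture it is near 0 from 3 d on; Gdf5 is drawn for the femur alone.

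Bmp2, the ligand that mouse fractures need to start healing, was the early riser of both injuries. At 4 h after full fracture its scaled RPKM was 19.0, 15.4, 12.4, 12.1 and 16.1 in the 5 femurs, against a lowest, median and highest value of 3.22, 4.58 and 5.26 in intact femurs. At 1 d the fractured femurs held 16.5, 20.5, 22.4, 16.5 and 16.5. All 10 early libraries lay above all 10 intact ones, with log2 changes of 1.72 ± 0.15 at 4 h (adjusted p = 3.39e-11) and 2.03 ± 0.15 at 1 d (adjusted p = 1.57e-12). Bmp2 then dropped by 1.81 ± 0.18 from 1 d to 3 d (adjusted p = 2.25e-09), and at 3 d, 7 d and 14 d it averaged 5.18, 4.06 and 4.59, none of which passed the test against intact. The 7 d value of -0.20 was called lower on RPKM as deposited (-0.42, adjusted p = 0.025) and without 7 d library 4 (-0.38, adjusted p = 0.0229).

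After stress fracture Bmp2 rose at 4 h and no longer passed the test at 1 d. The 4 h ulnas had 9.11, 9.82, 9.61, 7.94 and 5.52 scaled RPKM, against 2.77 to 4.00 in intact ulnas (median 3.45), and the groups did not overlap (log2 change 1.24 ± 0.15, adjusted p = 1.45e-06). By 1 d the ulnas held 4.65, 5.75, 3.91 and 3.97, a log2 change of 0.39 ± 0.16 that did not pass (adjusted p = 0.108). Later it was modestly raised, at 5.02 ± 0.345 at 5 d (SD, n = 5) and 5.36 ± 0.834 at 7 d (SD, n = 4) against 3.46 ± 0.454 in intact ulnas (SD, n = 9), with adjusted p of 0.00382 and 0.00291.

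Bmp3 is the atypical member of the family, abundant in bone and known in mice to limit bone mass by opposing the other ligands. It was the most abundant of the 8 ligands in intact femurs and fell at once after full fracture. The 4 h femurs had 8.01, 5.65, 5.10, 5.94 and 6.27 scaled RPKM, against 12.5, 19.0 and 27.5 (lowest, median, highest) in intact femurs. The 7 d femurs had 3.72, 2.49, 4.77, 5.89 and 2.94. At 4 h, 1 d, 3 d and 7 d the fractured and intact libraries did not overlap, and the log2 changes were -1.62 ± 0.18, -1.91 ± 0.18, -1.98 ± 0.18 and -2.30 ± 0.18, with adjusted p of at most 5.84e-09. At 14 d it was back at 17.1, 15.2, 14.6, 18.7 and 18.6, inside the intact range, after a rise of 2.12 ± 0.21 since 7 d (adjusted p = 2.33e-09).

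In ulnas the drop of Bmp3 passed the test at 4 h and 1 d and not later. At 4 h the values were 5.81, 6.77, 7.13, 5.85 and 6.60, against 8.86 to 14.0 in intact ulnas with a median of 12.4, and the groups did not overlap. The log2 change was -0.87 ± 0.11 at 4 h (adjusted p = 3.52e-06) and -0.51 ± 0.12 at 1 d (adjusted p = 0.00408). At 3 d, 5 d and 7 d Bmp3 averaged 13.4, 11.5 and 12.6 against 11.9 in intact ulnas, with differences of 0.16, -0.05 and 0.08 that did not pass.

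Markers of osteocytes, the cells inside mature bone, were also lower in mid repair of the femur. The 5 osteocyte markers summed to 67.5 to 220 scaled RPKM in 7 d femurs against 523 to 866 in intact femurs, and 5 of 5 were lower by the test. At 4 h, when Bmp3 was already down, 2 of them were higher and 2 lower and the sum was 470 to 858. Fgf23 was at 0 in every 14 d femur and in some 3 d and 7 d femurs. Skeletal muscle markers were also lower from 1 d on, 6 of 6 at 1 d, 3 d, 7 d and 14 d, and the part of either tissue in the Bmp3 values was not tested.

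Bmp4, a ligand of early callus and bone, fell in femurs from 1 d to 7 d and rose late in both bones. Femoral levels were 4.29, 3.88, 4.31, 6.55 and 6.18 at 4 h and 2.37, 1.73, 2.59, 3.56 and 1.89 at 7 d, against 3.95, 5.15 and 6.10 (lowest, median, highest) in intact femurs. The 7 d libraries lay below all intact ones, and the log2 changes ran through -0.06, -0.71, -0.93 and -1.1 at 4 h, 1 d, 3 d and 7 d (SE 0.14 each), the last 3 of them called. At 14 d Bmp4 stood at 9.74, 7.76, 7.23, 7.79 and 9.01, above all intact femurs (0.67 ± 0.14, adjusted p = 0.000121). In ulnas it did not pass at 4 h, 1 d or 3 d, and rose to 7.57, 8.74, 7.86 and 10.3 at 7 d against 3.49 to 6.49 in intact ulnas, again without overlap (0.77 ± 0.14, adjusted p = 9.15e-05).

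Bmp5, whose loss gives the short ear skeletal trait in mice, fell early in femurs and rose later in both bones. At 4 h fractured femurs had 2.45, 1.62, 1.59, 2.17 and 1.76 scaled RPKM against 2.16 to 4.97 in intact femurs (-0.95 ± 0.14, adjusted p = 9.91e-07), with overlap at the lower edge. At 7 d they had 5.71, 5.18, 5.90, 5.77 and 4.30 (0.50 ± 0.14, adjusted p = 0.00253), a call lost on RPKM as deposited, where the value was 0.29. The 1 d fall (-0.40) was lost without library 3 of the 1 d femurs (-0.29), and the 3 d rise (0.36) without any 1 of 4 of 15 libraries, with values from 0.27 to 0.41 over all 15 omissions. Both were lost when only the fractured and intact groups were fitted, and the 1 d fall also on RPKM as deposited (-0.33). The 5 d ulnas had 7.40, 7.86, 7.16, 7.14 and 6.79 against 3.12 to 5.22 in intact ulnas, with no overlap (0.78 ± 0.11, adjusted p = 1.88e-06).

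Bmp6, known both as a ligand of hypertrophic cartilage and as a regulator of iron uptake, had the largest change between neighbouring times of the 6 BMP genes in femurs. It stood at 2.16, 2.23, 1.82, 1.58 and 2.10 scaled RPKM at 3 d, below the whole intact range of 6.92 to 11.3 (-1.99 ± 0.17, adjusted p = 2.53e-11). At 7 d it stood at 12.3, 6.22, 18.8, 16.2 and 10.8. This was a rise of 2.56 ± 0.20 from the 3 d periosteum to the 7 d callus (adjusted p = 2.61e-11), and no 3 d library reached a 7 d one. Against intact femurs the 7 d value was 0.57 ± 0.17 higher (adjusted p = 0.00506), with overlap, and that call was lost on RPKM as deposited (0.35). In ulnas Bmp6 was lower at 3 d, with 6.00, 5.44, 5.07, 9.06 and 4.41 against 6.88 to 9.87 in intact ulnas (-0.61 ± 0.12, adjusted p = 0.000126), and at 7 d (-0.41 ± 0.13, adjusted p = 0.0112). The fall at 1 d (-0.38, adjusted p = 0.0471) was lost without any 1 of 10 of the 13 libraries, with values from -0.47 to -0.30 over all 13 omissions.

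Bmp7, an osteogenic ligand also called osteogenic protein 1, fell in the femur in mid repair. Fractured femurs had 1.92, 1.41, 1.79, 1.02 and 2.07 scaled RPKM at 3 d and 1.21, 0.604, 1.00, 2.04 and 0.762 at 7 d, against 2.69, 4.04 and 4.61 (lowest, median, highest) in intact femurs. Neither time overlapped with intact, and the changes were -1.23 ± 0.19 (adjusted p = 1.53e-06) and -1.81 ± 0.19 (adjusted p = 6.25e-10). A rise at 1 d, to 5.76, 5.15, 7.28, 4.68 and 4.90, measured 0.49 ± 0.19 (adjusted p = 0.0313) and was lost without intact library 5 or 6 or 1 d library 1 or 3, where it was 0.43, 0.45, 0.47 and 0.39. In ulnas Bmp7 rose at 7 d alone among the 5 times, to 6.35, 5.22, 4.41 and 3.96 against 2.52 to 4.29 in intact ulnas (0.58 ± 0.18, adjusted p = 0.0127), and that call was lost without 7 d library 1 (0.46).

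Gdf5, best known for its part in joint formation and early cartilage, was scarce in every group but the 7 d femurs. These held 11, 5.48, 8.79, 10.6 and 4.23 scaled RPKM, from 173 to 541 reads each, against 0.0737, 0.219 and 0.308 (lowest, median, highest) in intact femurs. No other femur library exceeded 1.03. The log2 change at 7 d was 4.64 ± 0.33 (adjusted p = 1.25e-13), and by 14 d it had dropped by 3.8 ± 0.39 since 7 d (adjusted p = 2.99e-09). Outside the 7 d group too few femur libraries reached 0.5 scaled RPKM for the filter, so Gdf5 entered the femur fit only through the group where it is high. Its 7 d tests thus rest on the values that also admitted it, and they add no support beyond the levels given. A residual rise at 14 d (0.84 ± 0.33, adjusted p = 0.0329) rested on 0.306, 0.629, 0.758, 0.472 and 0.231, and was lost without any 1 of 5 of the 15 libraries, with values from 0.67 to 1.02 over all 15 omissions. It was also lost with a pseudocount of 1 and with no filter on low values.

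In ulnas Gdf5 did not pass the filter and was not tested. Its 5 d libraries had 0.696, 0.360, 0.664, 0.441 and 0.398 scaled RPKM, from 12 to 21 reads each, against 0.0288 to 0.225 in intact ulnas (median 0.0901, from 1 to 8 reads). These groups did not overlap. With no filter on low values the 5 d log2 change was 1.61 ± 0.31 (adjusted p = 0.000167), and none of the other 4 times passed.

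Chondrocyte markers were high in both groups with the highest mean Gdf5 of their bone. In 7 d femurs 9 of 9 tested markers were higher and summed to 4815 to 10713 scaled RPKM, against 208 to 503 in intact femurs. At 14 d, when Gdf5 was low again, 9 of 9 were still higher, with sums of 871 to 2138. In 5 d ulnas 9 of 9 were higher and summed to 951 to 2427, against 84.1 to 202 in intact ulnas, where Matn1 was at 0 in some libraries. Library 1 of the 4 h femurs, with a chondrocyte score of 2.90 when the other 4 were between -0.37 and 0.08, had the highest Gdf5 of its group (0.506), and library 4 of the 1 d femurs, with 1.70, had the highest of its own (1.03). Leaving out either library changed no call of any of the 10 genes against intact at those times. Cartilage markers were not alone in being high in these groups. Tendon markers summed to 129 to 386 in 7 d femurs, against 15.4 to 54.0 in intact femurs. In 5 d ulnas they summed to 36.4 to 58.4, against 14.7 to 20.3 in intact ulnas. Hypertrophic chondrocyte markers summed to 1774 to 4112 in 7 d femurs, against 7.92 to 10.5 in intact femurs. The part of cartilage or tendon in the Gdf5 values was not tested.

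**Figure D3:**
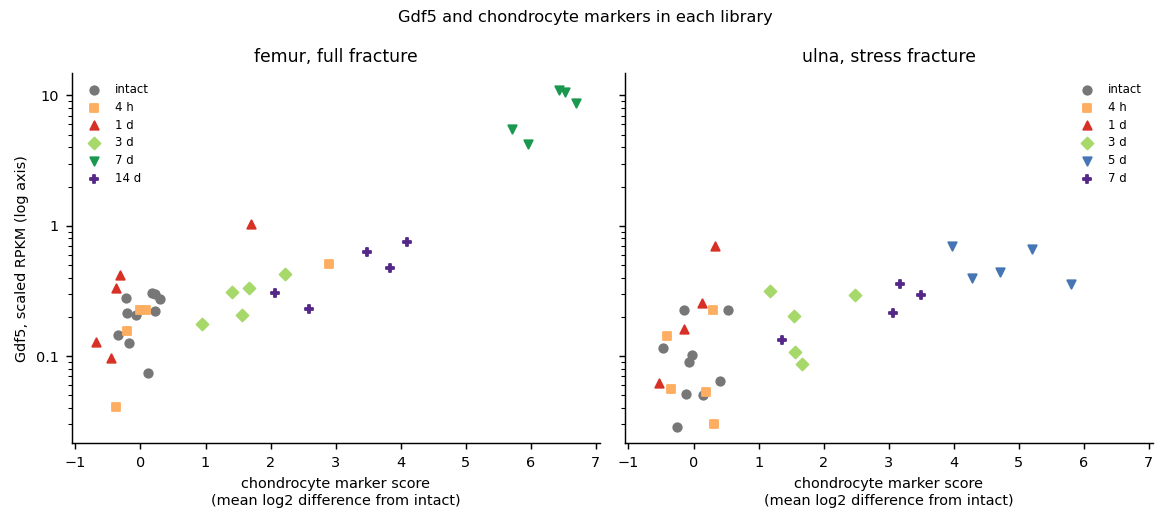
Gdf5 in scaled RPKM (log axis) against the chondrocyte marker score of each library, the mean log2 difference of 9 markers from intact limbs of the same bone, for femurs (left) and ulnas (right). The 7 d femurs stand alone at scores of 5.71 to 6.69, and the 5 d ulnas reach scores of 3.98 to 5.80 with Gdf5 up to 0.696.

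Gdf10, also called BMP-3b and the closest relative of Bmp3, ranked between 3 and 7 among the 8 ligands in the femur groups and was the leading one in every ulna group. At 4 h it fell in both: fractured femurs had 2.72, 1.86, 1.14, 1.57 and 1.43 scaled RPKM against 2.87 to 5.42 in intact femurs, and injured ulnas 6.15, 10.4, 11.2, 9.52 and 6.01 against 12.7 to 23.5 in intact ulnas. Neither pair overlapped, and the log2 changes were -1.23 ± 0.18 (adjusted p = 7.78e-07) and -1.04 ± 0.17 (adjusted p = 0.000124). By 1 d the ulnas had 15.4, 31.1, 20.4 and 21.8, a rise of 1.35 ± 0.21 since 4 h (adjusted p = 8.05e-05). At 5 d they had 23.0, 33.8, 32.8, 30.8 and 27.3 (0.75 ± 0.17 above intact, adjusted p = 0.0007), and in femurs the high point came at 7 d with 7.47, 5.69, 7.16, 6.81 and 5.45 (0.66 ± 0.18, adjusted p = 0.00204). Between and after these times Gdf10 was lower in femurs, by the test, at 3 d (-0.68 ± 0.18, adjusted p = 0.00184) and at 14 d (-0.55 ± 0.18, adjusted p = 0.0109), a call lost without 14 d library 1. In ulnas the values of 0.42 at 3 d (adjusted p = 0.0551) and 0.46 at 7 d (adjusted p = 0.0515) did not pass, and both passed when only the injured and intact groups were fitted (adjusted p of 0.0276 and 0.0387). Each also passed without any 1 of 3 libraries, at values of up to 0.53 at 3 d and 0.63 at 7 d.

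Among the antagonists, Nog rose in 2 separate waves after full fracture. Fractured femurs had 2.79, 4.98, 4.48, 5.83 and 4.73 scaled RPKM at 1 d, 2.06, 2.01, 2.36, 3.14 and 2.20 at 3 d and 4.81, 4.11, 8.99, 6.53 and 3.68 at 7 d, against 1.91, 2.36 and 3.20 (lowest, median, highest) in intact femurs. The 1 d libraries overlapped with intact through 1 library, and the 7 d libraries did not overlap. The changes were 0.87 ± 0.22 at 1 d (adjusted p = 0.00124), -0.04 ± 0.22 at 3 d (not passed) and 1.13 ± 0.22 at 7 d (adjusted p = 3.45e-05), and the drop between 1 d and 3 d passed as well (-0.91 ± 0.25, adjusted p = 0.00542). In ulnas Nog passed at 5 d (0.46 ± 0.13, adjusted p = 0.00641) and at 7 d, where 7.20, 6.81, 5.11 and 6.99 stood against 3.50 to 5.22 in intact ulnas (0.65 ± 0.15, adjusted p = 0.000789).

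Grem1, an antagonist of the DAN family that prefers Bmp2, Bmp4 and Bmp7, was lower at 4 of the 5 times in ulnas. Injured ulnas had 2.02, 0.772, 1.74 and 1.5 scaled RPKM at 1 d, 0.888, 1.11, 1.72, 1.69 and 1.20 at 3 d and 0.890, 1.04, 1.24, 1.20 and 1.29 at 5 d, against 2.14, 2.55 and 3.55 (lowest, median, highest) in intact ulnas. None of these 3 groups overlapped with intact. The log2 changes were -0.86 ± 0.21 at 1 d (adjusted p = 0.00643), -1.0 ± 0.20 at 3 d (adjusted p = 0.000169) and -1.18 ± 0.20 at 5 d (adjusted p = 1.51e-05). The 1 d call was lost without library 2 (-0.59), and at 7 d the fall of 0.73 ± 0.21 (adjusted p = 0.00835) was lost without library 1 (-0.58) or library 4 (-0.56).

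In femurs Grem1 was first higher and then lower. It had 9.53, 7.42, 9.61, 5.82 and 7.24 scaled RPKM at 4 h and 1.14, 2.91, 1.55, 1.09 and 2.80 at 3 d, against 2.27 to 12.5 in intact femurs (median 4.31). Intact library 2, at 12.5, lay far above the next intact femur at 7.03. The changes were 0.83 ± 0.27 at 4 h (adjusted p = 0.00895) and -1.27 ± 0.27 at 3 d (adjusted p = 0.000138), and both held without any 1 library, with values from 0.73 to 1.00 and from -1.45 to -1.10. In ulnas at 4 h the values of 4.15, 3.06, 4.04, 4.50 and 3.28 gave 0.48 ± 0.20, which did not pass (adjusted p = 0.127). It passed when only the 4 h and intact ulnas were fitted (adjusted p = 0.0299), and it was called in the authors' deposited table (adjusted p = 0.0017).

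The 8 ligands together shifted in make-up over time. Summed over the group means, they came to 39.4, 42.1, 24.2, 44.4 and 46.4 scaled RPKM at the 5 successive times of full fracture, against 49.6 in intact femurs. Bmp2 led at 4 h with 38.1% of the sum and at 1 d with 43.9%. At 3 d Bmp2, Bmp3 and Bmp5 were level, at 21.5%, 20.6% and 20.1%. At 7 d Bmp6 led with 29.0%, followed by Gdf5 with 18.1%, and at 14 d Bmp3 led with 36.3%, against 39.5% in intact femurs. After stress fracture the sums were 43.5, 54.2, 62.7, 73.1 and 69.6 at 4 h, 1 d, 3 d, 5 d and 7 d, against 54.7 in intact ulnas. Gdf10 was the first of the 8 at all 5 times and in intact ulnas (32.2%), but only narrowly at 4 h, with 19.9% against 19.3% for Bmp2. No test was run on sums or shares, and they depend on gene lengths that are uncertain for Bmp4, Bmp6 and Gdf10.

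**Figure D4:**
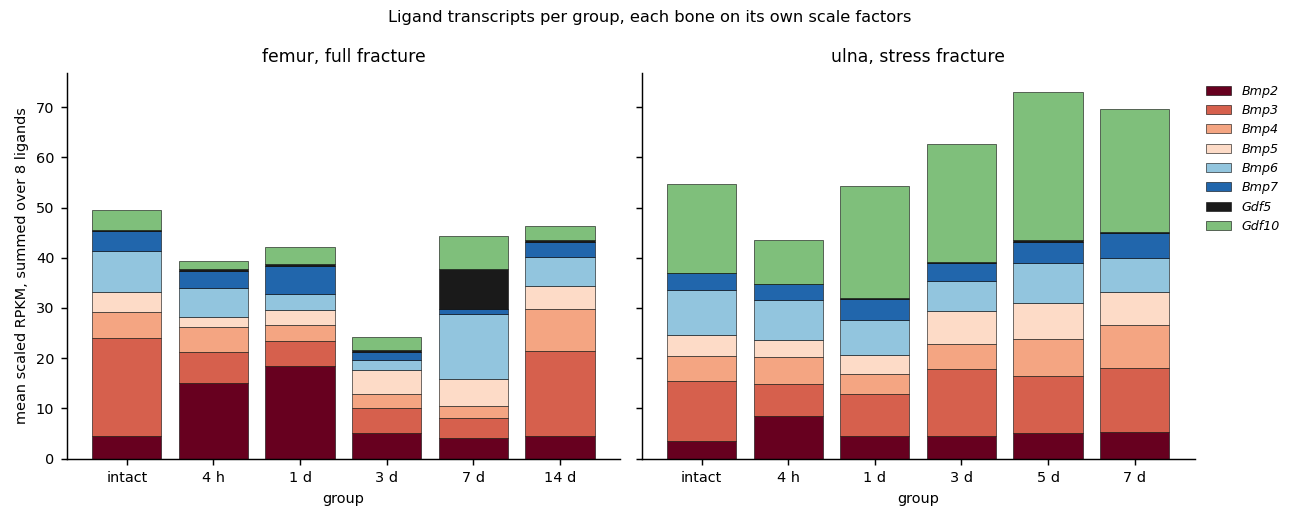
Group means of the 8 ligands in scaled RPKM, stacked, for femurs (left) and ulnas (right), each bone on its own scale factors. The femur sum is lowest at 3 d (24.2) and its leading ligand passes from Bmp3 to Bmp2 to Bmp6 and back to Bmp3, while Gdf10 is the widest band in each ulna group.

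The injuries were then compared directly at the 4 shared times, as the full fracture change minus the stress fracture change in a fit of all 67 libraries. At 4 h 2 of the 10 genes differed, beside 36% of all 21092 genes. These were Bmp3 (-0.76 ± 0.22, adjusted p = 0.00514) and Bmp5 (-0.65 ± 0.18, adjusted p = 0.0041), whose values were lower after full fracture relative to stress fracture. The count was 4 without library 4 of the 4 h femurs, where Bmp2 (0.55) and Nog (-0.64) were called too. At 1 d 4 genes differed (27.2% of all genes). Bmp2 was raised more after full fracture (1.63 ± 0.22, adjusted p = 1.88e-07), and Bmp3 (-1.41 ± 0.23) and Bmp6 (-0.94 ± 0.22) were lowered more. Gdf10 was at the edge (-0.68 ± 0.26, adjusted p = 0.0479), and its call was lost without any 1 of 20 of 28 libraries, with values from -0.88 to -0.50, and in 4 of the other settings.

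The counts were higher at 3 d and 7 d, but at 7 d the share of all genes was also the highest of the 4 times. At 3 d 5 of the 10 genes differed (26.3% of all genes), all lower after full fracture relative to stress fracture. They were Bmp3 (-2.14 ± 0.22), Bmp6 (-1.38 ± 0.22), Bmp7 (-1.36 ± 0.26), Gdf10 (-1.09 ± 0.25) and Bmp4 (-0.93 ± 0.20), with adjusted p of at most 0.00083. At 7 d 6 differed (47% of all genes). Gdf5 (3.9 ± 0.48, adjusted p = 1.26e-09) and Bmp6 (0.98 ± 0.22, adjusted p = 0.000244) were higher after full fracture relative to stress fracture. Bmp7 (-2.4 ± 0.27), Bmp3 (-2.39 ± 0.23), Bmp4 (-1.87 ± 0.20) and Bmp2 (-0.82 ± 0.22) were lower, with adjusted p of at most 0.00203. For Bmp4, Bmp6 and Bmp7 at 7 d the 2 injuries had called changes of opposite sign, and the share of all genes with such calls was not counted. The Bmp6 call in femurs was lost on RPKM as deposited (0.35), and the Bmp7 call in ulnas without 7 d library 1 (0.46). Equal days need not be equal stages: chondrocyte scores were 5.71 to 6.69 in 7 d femurs and 1.36 to 3.50 in 7 d ulnas. Neither antagonist passed this test at any of the 4 times, with differences from -0.43 to 0.48 for Nog and from -0.27 to 0.74 for Grem1, whose SE reached 0.35. Without intact femur library 2, Grem1 passed at 1 d (0.91, adjusted p = 0.0237). Bone and injury cannot be told apart in these comparisons, since each bone had 1 kind of injury. At 7 d the labelled tissue differed too, callus in femurs and periosteum in ulnas.

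**Figure D5:**
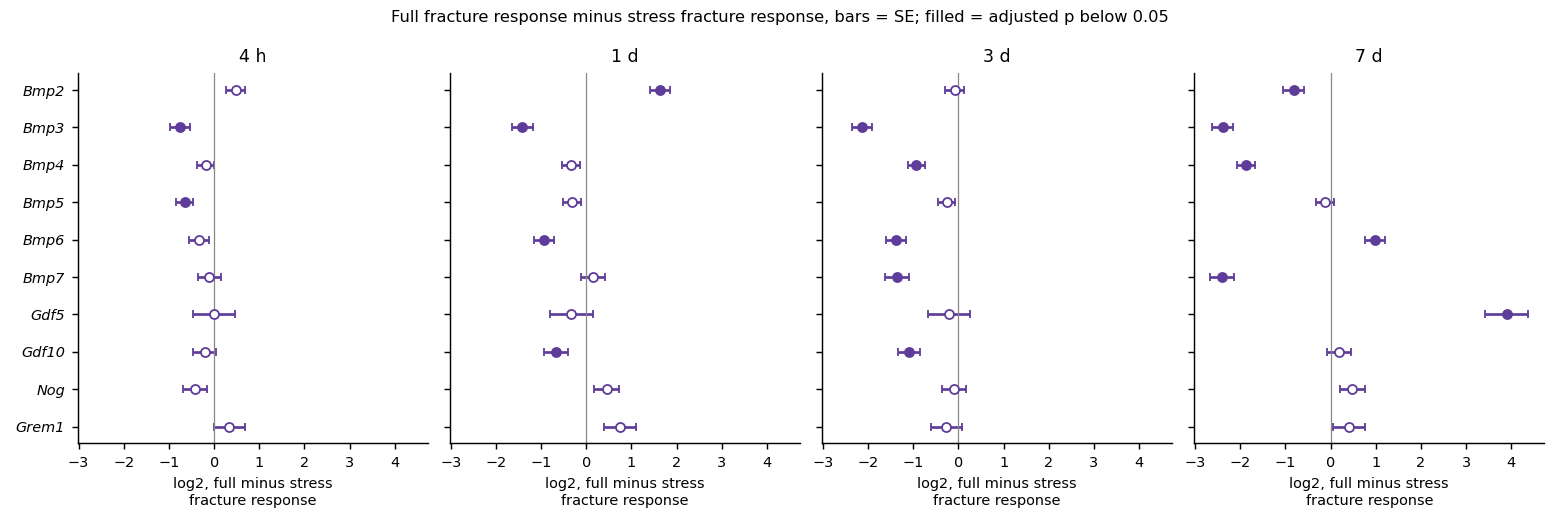
Full fracture response minus stress fracture response (log2, bars SE) of each gene at 4 h, 1 d, 3 d and 7 d, with filled points at an adjusted p below 0.05. The called genes number 2, 4, 5 and 6 at the 4 times, beside 36%, 27.2%, 26.3% and 47% of all genes. Gdf5 at 7 d (3.9) lies farthest to the right.

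The intact bones also differed from each other. Between intact ulnas and intact femurs 7 of the 10 genes differed, beside 39.7% of all genes. On the scale common to both bones, Gdf10 averaged 16.5 scaled RPKM in intact ulnas and 4.43 in intact femurs, without overlap (1.87 ± 0.15, adjusted p = 5.93e-16). Nog was the other gene higher in the ulna, at 3.85 against 2.59 (0.56 ± 0.16, adjusted p = 0.00285). Lower in the ulna were Bmp3, at 11.2 against 21.0 without overlap (-0.88 ± 0.13, adjusted p = 1.58e-07), Grem1, at 2.54 against 5.28 (-0.87 ± 0.20, adjusted p = 0.000344), and Bmp2, at 3.23 against 4.79 (-0.55 ± 0.13, adjusted p = 0.000363). Gdf5 (-0.75 ± 0.27, adjusted p = 0.0226) and Bmp7 (-0.44 ± 0.15, adjusted p = 0.0172) were also lower in the ulna, and both calls were lost on RPKM as deposited, at -0.63 and -0.23. With a pseudocount of 1 the Gdf5 value was -0.16 (adjusted p = 0.206), and it rests on medians of 3 reads in intact ulnas and 10 reads in intact femurs.

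With groups ranked by mean level, in femurs the ranges of Bmp2 at 1 d and 4 h overlapped and both stood apart from the other 4 groups. Gdf5 at 7 d stood apart from all, and its remaining 5 femur groups overlapped with their neighbours in the order. Gdf10 at 7 d was apart from intact, and below that its groups overlapped from one to the next. In ulnas the order of Gdf10 had 1 clear step, between intact ulnas and the lower 4 h ulnas, and that of Bmp6 had none.

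Counts over the wider pathway are given beside the share of all genes called in the same comparison. The protease list held Furin, Pcsk5, Pcsk6, Bmp1 and Tll1, where Bmp1 counts as a protease and not as a ligand. All 5 rose at 7 d after full fracture (median log2 change 1.35, against -0.08 over all genes, of which 66.2% were called). All 5 also rose at 3 d, 5 d and 7 d after stress fracture (medians 1.37, 1.70 and 1.53, against -0.02, -0.03 and -0.01, with 37.8%, 43.3% and 34.6% of all genes called). Whether they cut BMP ligands in this tissue was not tested. Of 8 Smads and Smurfs, which carry and curb the signal inside the cell, 7 rose at 14 d after full fracture (median 0.56, against -0.03, with 55.9% of all genes called) and all 8 at 5 d and 7 d after stress fracture (medians 0.48 and 0.41, with 43.3% and 34.6% called). At 7 d after full fracture 5 rose and 3 fell. Smad1 rose at all 5 femur times, by 0.49, 0.40, 0.62, 1.20 and 1.04, and in ulnas at 4 h (0.36) and from 3 d on (0.41, 0.76 and 0.76). The inhibitory Smad6 fell through 7 d in femurs (-0.98, -0.57, -0.40 and -0.41) and rose at 14 d (0.64), whereas in ulnas it rose at 3 d, 5 d and 7 d (0.30, 0.84 and 0.97).

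Of 9 BMP target genes 8 could be tested. In fractured femurs 2 rose and 4 fell at 4 h (median -0.36, against -0.04 over all genes), 3 rose and 3 fell at 1 d, 5 rose and 2 fell at 3 d, 3 rose and 1 fell at 7 d and 6 rose at 14 d (median 0.45). The shares of all genes called at these times were 56.7%, 51.5%, 56.9%, 66.2% and 55.9%, so the 4 of 8 at 7 d lie below the background. After stress fracture 2 rose and 2 fell at 4 h, 1 rose at 1 d, and 5, 6 and 5 rose at 3 d, 5 d and 7 d (medians 0.58, 0.69 and 0.72), beside 10.7%, 12.8%, 37.8%, 43.3% and 34.6% of all genes called at the 5 times. Id1, an inhibitor of differentiation and a direct Smad target, rose at all 5 times after full fracture, by 0.90, 0.77, 0.40, 0.93 and 0.39. Id3 rose from 3 d on, by 0.62, 0.75 and 1.62 at 3 d, 7 d and 14 d in femurs and by 0.84, 1.1 and 1.09 at 3 d, 5 d and 7 d in ulnas. Hey1 fell at 4 h in femurs (-1.31), was 2.3 higher at 14 d, and in ulnas reached 9.79 scaled RPKM at 7 d against 2.06 in intact ulnas (2.18 ± 0.18, adjusted p = 6.29e-10). Id4 went down in femurs from 4 h to 7 d (-0.83, -1.31, -1.33 and -1.0).

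Among the other secreted antagonists and modulators, 8 of 12 tested rose and 2 fell at 7 d after full fracture (median 1.17, against -0.08 over all genes, of which 66.2% were called), and 7 rose and 1 fell at 5 d after stress fracture (median 0.50, against -0.03, with 43.3% called). The chordin-like gene Chrdl2 rose to 1.82 scaled RPKM in 7 d femurs against 0.102 in intact femurs (3.22 ± 0.28, adjusted p = 6.33e-12). Its intact level was near the added 0.1, so the size of this log2 change depends on that constant. The follistatin-like gene Fstl1 reached 318 in 7 d femurs against 50.6 in intact femurs (2.66 ± 0.16, adjusted p = 2.44e-15) and 165 in 3 d ulnas against 31.1 in intact ulnas (2.4 ± 0.15, adjusted p = 1.38e-12). Sost, the osteocyte gene for sclerostin, fell to 19.7 in 7 d femurs against 296 in intact femurs (-4.08 ± 0.29, adjusted p = 9.26e-14) and to 65.3 in 4 h ulnas against 155 in intact ulnas (-1.27 ± 0.16, adjusted p = 3.52e-06). Sost is itself in the list of osteocyte markers, which were lower as a group in 7 d femurs. The part of osteocytes in the Sost values was not tested.

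Of 13 other BMP and GDF ligands 8 could be tested, and 4 of them fell at 7 d after full fracture, with none called up, a share below the 66.2% of all genes called. Mstn, the muscle ligand myostatin, fell to 1.17 scaled RPKM in 3 d femurs against 5.81 in intact femurs (-2.23 ± 0.48, adjusted p = 0.00018) and to 3.11 in 3 d ulnas against 7.52 in intact ulnas (-1.28 ± 0.28, adjusted p = 0.000675). Skeletal muscle markers were lower at the same times, 6 of 6 in femurs and 5 of 6 in ulnas, and their part in the Mstn values was not tested. Of 11 receptors and co-receptors, 2 rose and 7 fell in 4 h femurs (median -0.38, against -0.04, with 56.7% of all genes called), and 5 rose and 1 fell at 7 d, where the 6 of 11 lie below the 66.2% of all genes. The type I receptor gene Bmpr1b rose at 4 h after both injuries, to 2.73 in femurs against 0.971 in intact femurs (1.15) and to 1.93 in ulnas against 0.643 in intact ulnas (1.42).

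The genes most like each of the 10 were sought by Pearson correlation of mean log2 levels over the 12 groups, which come from 2 bones sampled in common libraries for all genes, so the coefficients describe these groups and carry no test. Bmp2 was most like H2-M1 (0.96), Smpd5 and Cxcl2 (0.92 each), and Bmp3 was most like Esr1 (0.97), BC055402 (0.96) and Irx3os (0.94). Gdf5 was most like Fam20b (0.98), 2610528A11Rik (0.97) and Usp29 (0.97). Its coefficients are set largely by 1 group. On the scale common to both bones Gdf5 averaged 8.56 scaled RPKM in 7 d femurs and at most 0.511 in any other group. Gdf10 was most like 2810032G03Rik, Barx1 (0.98 each) and Kif5a (0.97). For Bmp5 they were Wasf1, Ulk4 and Grin2d (0.98 each), for Bmp6 Fbxo8, Proser2 and Map1lc3a (0.94 to 0.96), for Bmp4 Gm37783, Mical3 and Gm25153 (0.93 each) and for Bmp7 Fam98c, A2m and Gm23734 (0.90 to 0.92). Nog was most like Jazf1 (0.92), Gm2018 (0.88) and Klk10 (0.84), and Grem1 was most like Gng5, Mrps31 (0.94 each) and Ube2f (0.92). Within the 10, the closest pairs were Bmp3 with Bmp4 (0.77) and Gdf10 with Nog (0.75), and the most opposite were Gdf10 with Grem1 (-0.84) and Bmp2 with Bmp5 (-0.72). These coefficients mix changes over time with differences between bones. Intact ulnas already had more Gdf10 and Nog and less Grem1 than intact femurs. In fractured femurs Gdf10 and Grem1 were called in opposite directions at 4 h (-1.23 and 0.83) but both lower at 3 d (-0.68 and -1.27).

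The authors' deposited table of DESeq2 results gave 91 values for these genes against intact. In the authors' deposited table and here 51 were called in the same direction and 32 in neither. Another 6 were called in the authors' deposited table alone, all uncalled here at adjusted p from 0.0515 to 0.139, and 2 here alone. These 2 were Grem1 at 4 h after full fracture, with an adjusted p of 0.0638 in the authors' deposited table, and Bmp5 at 3 d after full fracture, with 0.057 in the authors' deposited table.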

How the data were processed

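The authors deposited RPKM tables of 67 libraries and tables of log2 fold changes with adjusted p-values from DESeq2. Per the submitters' processing notes, STAR 2.4.2a, mm10 and featureCounts 1.4.6 were used, with an annotation not given in the sources used here. Per the labels' protocols, RNA was depleted of ribosomal RNA.

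Here a median-of-ratios factor per library (0.782 to 1.18) rescaled the RPKM. A gene needed 0.5 scaled RPKM in 5 libraries. Values, with 0.1 added, were taken to log2 and given to limma 3.58.1 (R 4.3.3, variance trend, robust), for each bone and for both. The added 0.1 understates changes of Gdf5. Depth was recovered with GENCODE M21 lengths, by which 88.8% to 91.4% of values under 20 reads were whole within 0.01; Bmp4, Bmp6 and Gdf10 were whole in 11, 31 and 41 libraries. In each bone 27 names turned into dates were left out. The fits were tested on simulated data, and libraries were grouped by the labels. Alternatives were other scalings, pseudocounts, no filter, no variance trend, fits of 2 groups and leaving out each library.

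The 10 genes and all lists were chosen with earlier results of these data known. Named beside them are the 2 largest rises and falls of the pathway lists per injury, BMP targets and the 3 most alike genes of each. Dmp1, Col1a1, Acta1, Smad1, Smad6 and Bmpr1b were chosen after their values were seen.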

Additional observations from a re-analysis of the deposited data

Results flagged for a closer look

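Of 120 combinations of gene and group, 3 had a single library far from the others, where chance gives about 1 in 20. Grem1 stood at 4.35 scaled RPKM in library 1 of the 7 d femurs, with the next at 3.35, and at 12.5 in library 2 of the intact femurs, with the next at 7.03. Bmp2 stood at 4.42 in library 2 of the 5 d ulnas, with the next lowest at 5.03. No call of Grem1 in 7 d against intact femurs, or of Bmp2 in 5 d against intact ulnas, changed without the library concerned. Without intact library 2, Grem1 gained 1 call, the difference between injuries at 1 d (0.91, adjusted p = 0.0237).

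In 17 cases the test of the difference between injuries passed (log2, full minus stress fracture response). At 4 h these were Bmp3 (-0.76) and Bmp5 (-0.65). At 1 d they were Bmp2 (1.63), Bmp3 (-1.41), Bmp6 (-0.94) and Gdf10 (-0.68). At 3 d they were Bmp3 (-2.14), Bmp4 (-0.93), Bmp6 (-1.38), Bmp7 (-1.36) and Gdf10 (-1.09). At 7 d they were Bmp2 (-0.82), Bmp3 (-2.39), Bmp4 (-1.87), Bmp6 (0.98), Bmp7 (-2.4) and Gdf5 (3.9).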

How the results depend on the processing

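The 10 genes gave 221 results, with 4846 values under alternatives, and 45 of the results changed their side of the threshold under at least 1 of them. No called value turned its sign. Of 111 called results 95 kept their call without any 1 library, and 16 lost it without at least 1. The count of genes changed from 3 d to 5 d in ulnas was 0 on RPKM as deposited, 0 with no filter on low values and from 0 to 2 over the omissions of single libraries. Over such omissions the count ranged from 2 to 5 at 14 d in femurs, from 1 to 4 at 1 d in ulnas and from 2 to 4 for the difference at 4 h. RPKM as deposited cost 10 calls and added 8, no filter cost 6, a pseudocount of 1 cost 3 and added 2, and each other setting apart from leaving out a library changed at most 6. On RPKM as deposited the median of all genes moved to -0.28 at 7 d in femurs (from -0.08), to -0.18 at 5 d in ulnas (from -0.03) and to 0.20 between intact bones (from -0.01). With them the split of all called genes shifted, to 4749 up and 8573 down at 7 d in femurs (6491 and 6704 on the common scale) and to 8034 up and 2139 down for intact ulnas against intact femurs (3794 and 4579). No paired analysis was possible because the table columns carry no animal number. Few reads limit Gdf5 outside the 7 d femurs.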
